A study of Mus musculus with 9 samples.

Results

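A set of 10 genes that brake the cell cycle or belong to the p53 pathway was followed in the operated newborn mouse heart: the cyclin-dependent kinase (CDK) inhibitors Cdkn1a, Cdkn1b, Cdkn1c, Cdkn2c and Cdkn2d, the transcription factor gene Trp53, its antagonist Mdm2, the stress genes Gadd45a and Gadd45g, and the apoptosis gene Bax. They were chosen by name for their function, all 10 were among the 14479 genes of the deposited matrix, and all 10 were among the 13249 genes tested. RNA was sequenced from the bottom part of the ventricular apex of CD-1 mice in 3 groups of 3 libraries: ventricular apical resection with left vagotomy, ventricular apical resection alone, and sham surgery. Every group had surgery on postnatal day 1 and was collected on postnatal day 2, and no genotype or transgene is given. In apical resection the tip of the ventricle is cut away, which the newborn mouse heart can regrow, and in vagotomy a vagus nerve, part of the parasympathetic supply of the heart, is cut. No group had vagotomy without resection among the samples used here, so any change between the vagotomy and resection groups is seen only in resected hearts.

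CDK inhibitors bind CDKs, alone or in complex with cyclins, and hold cells before DNA replication. The Cip/Kip proteins p21 (Cdkn1a), p27 (Cdkn1b) and p57 (Cdkn1c) act on several CDKs, while the INK4 proteins p18 (Cdkn2c) and p19 (Cdkn2d) act on the CDKs that pair with D cyclins. The p53 protein, encoded by Trp53, is controlled mainly through its stability: Mdm2 marks it for destruction and is itself a p53 target, and Cdkn1a, Gadd45a and Bax are textbook p53 targets that also respond to other signals. In the mouse heart, cardiomyocytes leave the cell cycle in the first weeks after birth, and CDK inhibitors take part in that exit.

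The promoter windows of the 3 members that passed a test, Cdkn1a, Bax and Gadd45g, are shown first because they differ in the one feature that the pathway makes of interest, a match to the p53 binding consensus. Each is the 250 bases before an annotated start from RefSeq (GRCm38.p6), 5′ to 3′ on the gene's strand. Cdkn1a has windows for 2 starts that lie 2790 bases apart. Capitals mark the p53 consensus decamer (10 letters, searched by name), the TATA box TATAAA, the CCAAT box CCAAT, the GC box GGGCGG and the AP-1 site TGANTCA, each searched on both strands.
Cdkn1a first start, chr17:29090729-29090978, plus strand: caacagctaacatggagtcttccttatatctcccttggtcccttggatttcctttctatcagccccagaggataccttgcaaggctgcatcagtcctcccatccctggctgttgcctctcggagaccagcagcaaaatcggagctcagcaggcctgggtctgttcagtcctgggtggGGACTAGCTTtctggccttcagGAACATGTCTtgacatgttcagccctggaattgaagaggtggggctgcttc
Cdkn1a second start, chr17:29093519-29093768, plus strand: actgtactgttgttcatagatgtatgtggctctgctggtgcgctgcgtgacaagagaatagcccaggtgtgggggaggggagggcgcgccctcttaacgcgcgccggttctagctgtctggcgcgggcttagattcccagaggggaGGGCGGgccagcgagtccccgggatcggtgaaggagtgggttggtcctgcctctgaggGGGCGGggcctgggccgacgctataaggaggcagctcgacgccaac
Bax, chr7:45466899-45467148, minus strand: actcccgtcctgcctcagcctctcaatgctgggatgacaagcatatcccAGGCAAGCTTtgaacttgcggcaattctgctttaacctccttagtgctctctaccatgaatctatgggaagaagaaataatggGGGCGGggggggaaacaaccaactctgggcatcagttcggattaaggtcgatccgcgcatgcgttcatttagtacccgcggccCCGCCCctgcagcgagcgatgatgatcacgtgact
Gadd45g, chr13:51846425-51846674, plus strand: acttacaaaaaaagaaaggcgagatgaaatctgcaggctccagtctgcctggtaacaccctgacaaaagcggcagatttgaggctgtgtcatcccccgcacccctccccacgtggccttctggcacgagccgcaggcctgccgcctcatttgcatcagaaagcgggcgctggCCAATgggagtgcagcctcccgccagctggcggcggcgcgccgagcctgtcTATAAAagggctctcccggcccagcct

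The first Cdkn1a window held p53 decamers that begin 73 and 51 bases before the start, GGACTAGCTT and GAACATGTCT, with 12 bases between them. GAACATGTCT is followed directly by TGACATGTTC, which departs from the consensus only in its first letter and so was not marked. The exact search therefore does not show which decamers belong together. The decamer nearer the first start lies 2841 bases before the second start, whose own window held GC boxes at 104 and 46 bases and no decamer. Bax held 1 decamer, AGGCAAGCTT, at 201 bases, and GC boxes at 118 and 35 bases. Gadd45g held a TATA box at 27 bases and a CCAAT box at 78 bases, and no decamer within the 250 bases.

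RefSeq windows were found for 9 of the 10 members, 11 windows in all. A p53 decamer was present in 6 of the 11, in Cdkn1a, Bax, Mdm2 (GAACTTGCCT), Gadd45a (GGGCTAGCCC), Trp53 (GGACTTGCCC) and Cdkn2d (GGGCTTGCCT, where it overlaps a GC box), against 7.13% of the 32851 RefSeq windows of the same length. Members with a decamer thus include genes that passed a test and genes that did not. The GC box was in 7 member windows against 32.7% of all windows, the CCAAT box in 6 against 33.8%, the TATA box letters in 2 (Gadd45g and Trp53) against 12.4%, and the AP-1 site in 0 against 6.75%. The Trp53 match lies on the opposite strand, 248 bases before the start, unlike that of Gadd45g at 27 bases. The members were picked partly as p53 targets, so a decamer count above that of all genes is no independent observation, and a letter match does not show binding.

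Values are FPKM, read fragments scaled to transcript length and library size, so levels can be compared between genes. Group values are mean ± SD over 3 libraries, and changes are differences of log2(FPKM + 1), which understate the change of genes with low values. Each change was tested two-sided with limma, and p-values were adjusted by the Benjamini-Hochberg method over the 13249 tested genes, with a threshold of 0.05. The labels do not say whether libraries came from separate pups, so p-values here cover the spread between these samples alone, and an exact permutation test of 3 against 3 libraries cannot give a p below 0.1. The depth of the libraries is unknown. In such bulk tissue, fewer cells of a type and less RNA per cell cannot be told apart. Across genes, library pairs had a correlation of 0.746 to 0.951, and vagotomy library 3 stood apart with the lowest median r, 0.801, against 0.869 to 0.895 for the others. Heart muscle markers were high in every library, but Myh6 and Actc1 are listed at 0 in all 3 vagotomy libraries and were left out of the sum. Over the other 9 the sum was 20647 to 46248 FPKM with vagotomy, 10352 to 15320 FPKM with resection and 14073 to 15973 FPKM with sham. Every vagotomy library lay above all the others in this sum, but the markers did not move together. Myl3 had 5818 to 10656 FPKM with vagotomy and 804 to 1680 FPKM with sham. Myl2 went the other way, with 2802 to 4396 FPKM with vagotomy and 5322 to 7766 FPKM with sham. Over all 11 markers the median log2 change with vagotomy against sham was 0.02, with 6 higher and 5 lower in mean. The 5 lower include Myh6 and Actc1 with their values of 0, so that median does not describe the other 9. The part of these markers in the member values was not tested.

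Cdkn1a, Gadd45g and Bax were the members that rose, and they did so in resection with vagotomy against sham. Cdkn1a and Gadd45g averaged about 6 times their sham level, or 2.93 and 3.65 times without vagotomy library 3, and Bax averaged 2.72 times its sham level. No member passed the test between resection and sham or between resection with vagotomy and resection. This holds for the fit without pairing: with the replicate number as a block, Bax passed against resection (limma adjusted p = 0.0447). Trp53 itself, Mdm2, Gadd45a and the other 4 CDK inhibitors passed in no comparison.

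**Figure D1:**
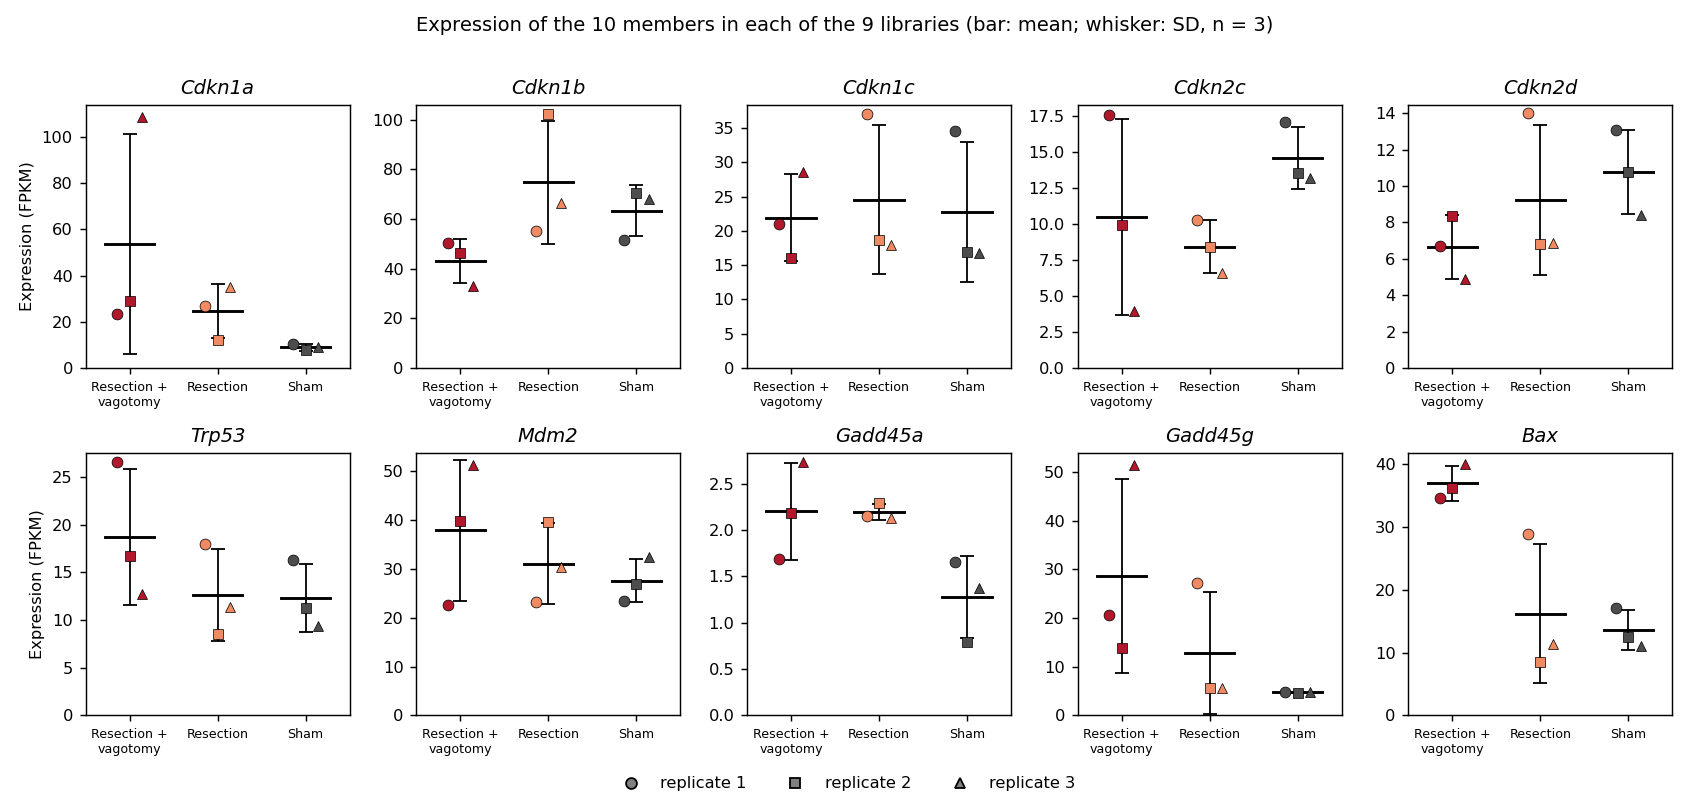
FPKM of the 10 genes in each library, on linear axes that start at 0, with 1 panel per gene and its own scale. Points are libraries, the bar is the mean and the whisker the SD (n = 3); in the Cdkn1a panel the vagotomy libraries reach 109 FPKM while the sham libraries stay between 7.60 and 10.4 FPKM, and in the Bax panel the vagotomy libraries lie close together at 34.7 to 40.1 FPKM.

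Cdkn1a (ENSMUSG00000023067, GRCm38 chr17:29090976-29100727, plus strand) encodes p21, which blocks CDKs and the replication clamp. A model on the opposite strand, AC167363.2, overlaps it, and reads of the pair cannot be told apart without strand. Cdkn1a had 23.6, 29.0 and 109 FPKM in the vagotomy libraries, 26.7, 12.1 and 34.9 FPKM in the resection libraries, and 10.4, 7.60 and 8.90 FPKM in the sham libraries. Every library of both operated groups lay above every sham library, while the vagotomy and resection ranges overlapped and vagotomy library 3 was far above the rest. The means were 53.7 ± 47.7 FPKM with vagotomy, 24.6 ± 11.6 FPKM with resection and 8.96 ± 1.39 FPKM with sham (SD, n = 3 each).

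Against sham, Cdkn1a rose by 2.13 ± 0.54 (SE) on the log2 scale in resection with vagotomy (95% interval 0.93 to 3.33, limma adjusted p = 0.0370). Without vagotomy library 3 the change was 1.46 and the adjusted p 0.0747. Resection differed from sham by 1.25 ± 0.54 (interval 0.05 to 2.45), with a limma p of 0.0422 before and 0.799 after adjustment. Resection with vagotomy differed from resection by 0.88 ± 0.54 (interval -0.32 to 2.07, limma adjusted p = 0.349), and by 0.20 without vagotomy library 3. The comparisons share libraries, so the changes are not independent of each other. The authors' deposited table, made with Cuffdiff, gave Cdkn1a 25.1 FPKM in resection and 9.11 FPKM in sham with q = 0.00161. For resection with vagotomy against resection the authors' deposited table gave 53.5 and 24.5 FPKM with q = 0.0320, so Cdkn1a was called there in both comparisons.

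Gadd45g (ENSMUSG00000021453, chr13:51846678-51848468, plus strand) belongs to a family of small stress proteins that bind the replication clamp and activate stress kinases. Gadd45g had 20.6, 13.9 and 51.4 FPKM in the vagotomy libraries, 27.3, 5.70 and 5.62 FPKM in the resection libraries, and 4.73, 4.56 and 4.87 FPKM in the sham libraries. The sham libraries were nearly equal and all operated libraries lay above them, but resection libraries 2 and 3 lay close to sham and library 1 far above it. The means were 28.6 ± 20.0 FPKM with vagotomy, 12.9 ± 12.5 FPKM with resection and 4.72 ± 0.155 FPKM with sham (SD, n = 3 each).

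Gadd45g rose by 2.16 ± 0.58 on the log2 scale in resection with vagotomy against sham (interval 0.88 to 3.44, limma adjusted p = 0.0430). Its change without vagotomy library 3 was 1.65, with an adjusted p of 0.123. Resection differed from sham by 0.91 ± 0.58 (interval -0.37 to 2.19, limma adjusted p = 1). Against resection, resection with vagotomy differed by 1.25 ± 0.58 (interval -0.03 to 2.53, limma adjusted p = 0.216). Of the 9 leave-one-out fits 1 passed, 1.94 without resection library 1 (adjusted p = 0.0477), while the change was 0.73 without vagotomy library 3 (0.506), 0.91 without resection library 2 (0.526) and 0.90 without resection library 3 (0.442). The authors' deposited table gave Gadd45g 13.1 FPKM in resection and 4.80 FPKM in sham (q = 0.00161). The authors' deposited table also called it for resection with vagotomy against resection, at 28.5 and 12.9 FPKM (q = 0.00578).

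Bax (ENSMUSG00000003873, chr7:45461697-45466898, minus strand) encodes a protein that opens the outer mitochondrial membrane in apoptosis. The annotation places Gm45808 on the same strand over part of this locus, so reads of the pair may not be separable. Bax had 34.7, 36.2 and 40.1 FPKM in the vagotomy libraries, 28.8, 8.47 and 11.4 FPKM in the resection libraries, and 17.2, 12.5 and 11.04 FPKM in the sham libraries. All 3 vagotomy libraries lay above all 6 others and close to each other, whereas resection library 2 lay below the sham range, library 3 within it and library 1 above it. The means were 37.0 ± 2.80 FPKM with vagotomy, 16.2 ± 11.02 FPKM with resection and 13.6 ± 3.21 FPKM with sham (SD, n = 3 each).

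Bax rose by 1.40 ± 0.39 on the log2 scale in resection with vagotomy against sham (interval 0.55 to 2.25, limma adjusted p = 0.0460). Resection differed from sham by 0.08 ± 0.39 (interval -0.77 to 0.93, limma adjusted p = 1). The change in resection with vagotomy against resection was 1.32 ± 0.39 (interval 0.47 to 2.17), with a limma p of 0.00604 before and 0.0791 after adjustment. It passed in 2 of 19 alternatives: with the replicate number of the titles as a block (adjusted p = 0.0447), and without resection library 1 (1.81, adjusted p = 0.0167). The other alternatives did not pass, among them the fits without resection library 2 (0.98, adjusted p = 0.260), without vagotomy library 3 (0.178) and with the 6 compared libraries only (0.176). The authors' deposited table called Bax in this comparison at 36.8 FPKM with vagotomy and 16.2 FPKM with resection (q = 0.00314), and the authors' deposited table did not call it between resection and sham.

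The calls against sham rest on few libraries. With each of the 9 libraries left out in turn, Cdkn1a stayed past the threshold in 4 fits (adjusted p 0.0325 to 0.135), Gadd45g in 2 (0.0151 to 0.142) and Bax in 2 (0.0122 to 0.170). No member passed without sham library 1, 2 or 3, or without vagotomy library 2 or 3, and only Cdkn1a passed without vagotomy library 1 or resection library 3. The direction was upward in every one of these fits, with log2 changes of 1.46 to 2.53 for Cdkn1a, 1.65 to 2.56 for Gadd45g and 1.27 to 1.57 for Bax.

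Trp53 (ENSMUSG00000059552, chr11:69580359-69591873, plus strand) encodes p53 itself and passed in no comparison. Trp53 had 26.6, 16.7 and 12.8 FPKM in the vagotomy libraries, 17.96, 8.52 and 11.3 FPKM in the resection libraries, and 16.3, 11.2 and 9.35 FPKM in the sham libraries. The ranges of the 3 groups overlapped, and vagotomy library 3, which had the highest Cdkn1a and Gadd45g, had the lowest Trp53 of its group. The change in resection with vagotomy against sham was 0.54 ± 0.35 (interval -0.23 to 1.31, limma adjusted p = 0.323), against resection 0.53 ± 0.35 (limma adjusted p = 0.378), and resection differed from sham by 0.01 ± 0.35 (interval -0.76 to 0.78, limma adjusted p = 1). These values are of the mRNA, and p53 protein was not measured here.

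Mdm2 (ENSMUSG00000020184, chr10:117688875-117710758, minus strand), the ligase that marks p53 for destruction, had 22.5, 39.8 and 51.2 FPKM in the vagotomy libraries, 23.3, 39.7 and 30.4 FPKM in the resection libraries, and 23.5, 26.96 and 32.4 FPKM in the sham libraries. The lowest library of each group lay between 22.5 and 23.5 FPKM, and the groups overlapped. The largest difference, resection with vagotomy against sham, was 0.38 ± 0.33 (interval -0.35 to 1.11, limma adjusted p = 0.474). Mdm2 FPKM over Trp53 FPKM, a ratio formed after the values were seen, was 0.848, 2.38 and 4.01 with vagotomy, 1.30, 4.66 and 2.68 with resection, and 1.45, 2.40 and 3.47 with sham. In every group library 1 had the lowest ratio.

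Gadd45a (ENSMUSG00000036390, chr6:67035096-67037457, minus strand), the relative of Gadd45g that is the standard p53 target, was the lowest of the 10 genes in every group. Gadd45a had 1.68, 2.18 and 2.74 FPKM in the vagotomy libraries, 2.15, 2.29 and 2.13 FPKM in the resection libraries, and 1.66, 0.792 and 1.37 FPKM in the sham libraries. Both operated groups lay above sham without overlap, at the closest point 1.68 against 1.66 FPKM, and none of the differences passed: 0.50 ± 0.26 for resection with vagotomy and 0.51 ± 0.26 for resection against sham (limma adjusted p = 0.223 and 0.996). Its deposited locus also holds E230016M11Rik on the opposite strand, and no strand setting is given in the sources used here, so reads of the pair cannot be told apart. Gadd45g exceeded Gadd45a in every library, by 12.2, 6.35 and 18.8 times with vagotomy, 12.7, 2.48 and 2.64 times with resection, and 2.85, 5.76 and 3.55 times with sham.

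**Figure D2:**
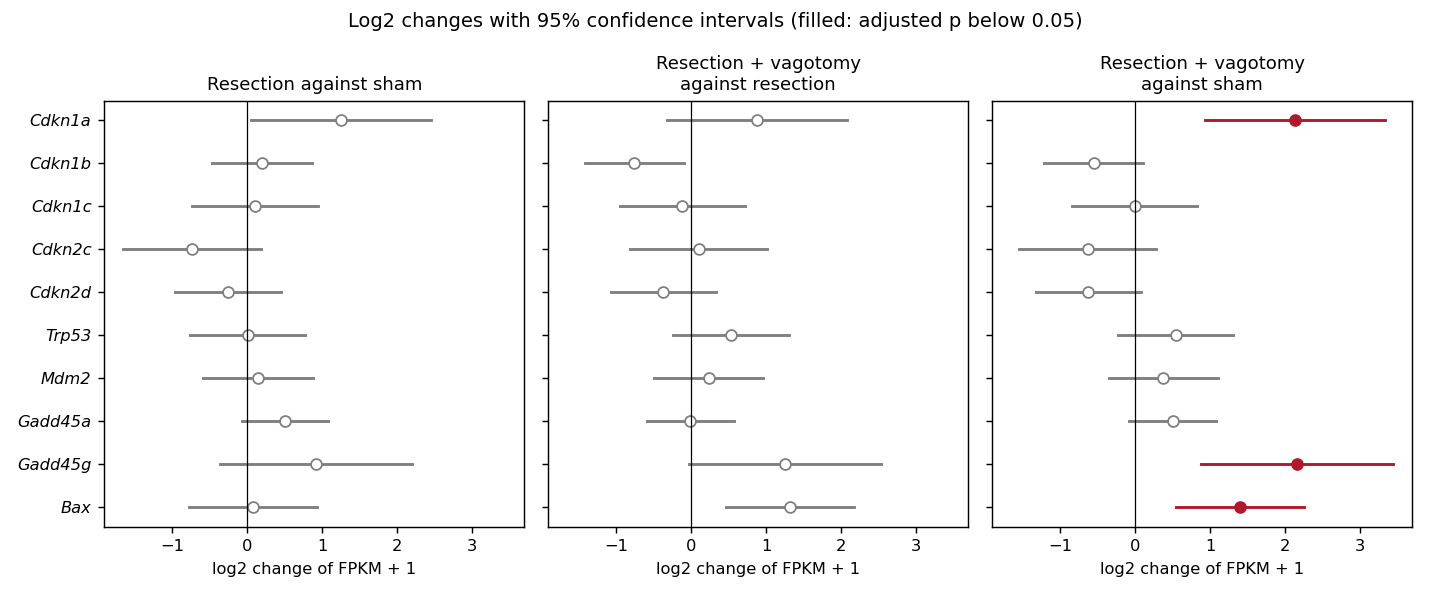
Differences of log2(FPKM + 1) for the 10 genes in the 3 comparisons, with 95% intervals from limma as lines; the vertical line marks no change and filled red points have an adjusted p below 0.05. Filled points appear in the panel of resection with vagotomy against sham, for Cdkn1a at 2.13, Gadd45g at 2.16 and Bax at 1.40, and the other 2 panels hold none.

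Cdkn1b (ENSMUSG00000003031, chr6:134920401-134925513, plus strand) encodes p27, a Cip/Kip inhibitor of resting cells. Cdkn1b had 50.2, 46.1 and 32.9 FPKM in the vagotomy libraries, 55.2, 102 and 66.6 FPKM in the resection libraries, and 51.6, 70.5 and 67.9 FPKM in the sham libraries. The vagotomy libraries lay below all the others, at the closest point 50.2 against 51.6 FPKM in sham. The change was -0.75 ± 0.30 in resection with vagotomy against resection (interval -1.42 to -0.09), with a limma p of 0.0295 before and 0.160 after adjustment, and -0.55 ± 0.30 against sham (limma adjusted p = 0.240). The authors' deposited table called Cdkn1b in resection with vagotomy against resection, at 42.9 and 74.5 FPKM (q = 0.0123).

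Cdkn1c (ENSMUSG00000037664, chr7:143458339-143461050, minus strand), an imprinted gene for p57, had 21.02, 16.1 and 28.7 FPKM in the vagotomy libraries, 37.1, 18.6 and 17.998 FPKM in the resection libraries, and 34.6, 16.9 and 16.7 FPKM in the sham libraries. The spread lay within groups rather than between them: in both the resection and the sham group library 1 lay far above the other libraries. The change in resection with vagotomy against sham was -0.01 ± 0.38 (interval -0.84 to 0.83, limma adjusted p = 0.995). An antisense model, Gm44732, overlaps this locus, and its reads cannot be told apart from those of Cdkn1c.

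Within the Cip/Kip family the balance differed between libraries, a description made after the values were seen. Cdkn1a made up 24.9%, 31.8% and 63.8% of the family's summed FPKM in the vagotomy libraries, 22.5%, 9.09% and 29.2% in the resection libraries, and 10.7%, 7.99% and 9.51% in the sham libraries. Cdkn1b made up 52.96%, 50.6% and 19.3% with vagotomy, 46.3%, 76.9% and 55.7% with resection, and 53.4%, 74.2% and 72.6% with sham. The sum of the 3 genes was 94.8, 91.2 and 170 FPKM with vagotomy, 119, 133 and 120 FPKM with resection, and 96.6, 95.05 and 93.5 FPKM with sham. In vagotomy libraries 1 and 2 the sum was thus near that of sham while its make-up differed, and in library 3 it was the highest of all 9.

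**Figure D3:**
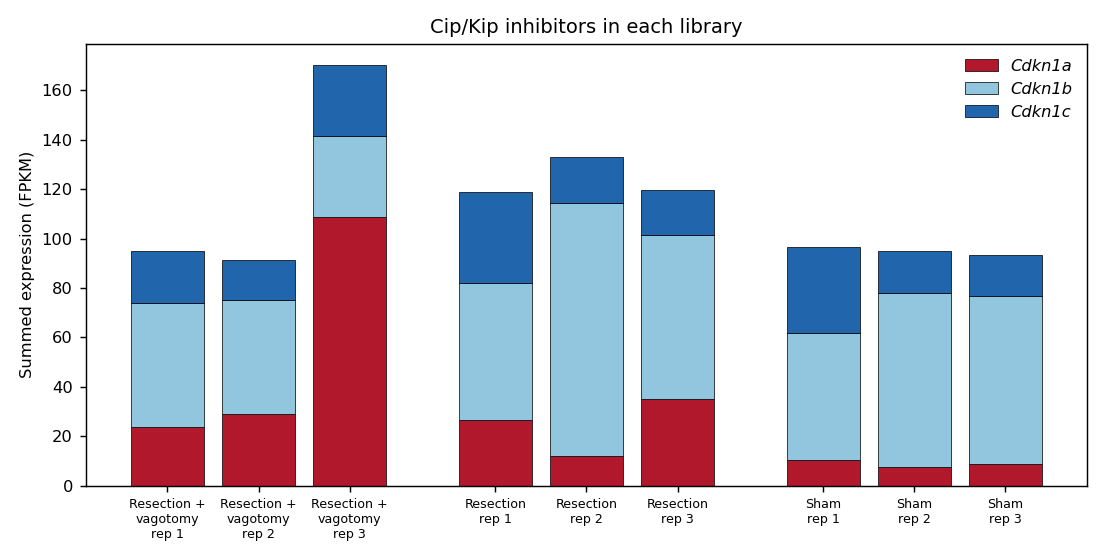
Stacked FPKM of Cdkn1a, Cdkn1b and Cdkn1c in each of the 9 libraries, on a linear axis from 0. The Cdkn1a part is largest in vagotomy library 3, where it is 63.8% of 170 FPKM, and at most 10.7% of the sum in the sham libraries.

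The INK4 gene Cdkn2c (ENSMUSG00000028551, chr4:109660876-109667189, minus strand) had 17.5, 9.91 and 3.94 FPKM in the vagotomy libraries, 10.3, 8.38 and 6.61 FPKM in the resection libraries, and 17.1, 13.5 and 13.2 FPKM in the sham libraries. The resection libraries lay below the sham libraries without overlap, and the vagotomy libraries spanned both. The change was -0.73 ± 0.41 in resection against sham (interval -1.65 to 0.18, limma adjusted p = 1) and -0.63 ± 0.41 in resection with vagotomy against sham (limma adjusted p = 0.329). Cdkn2d (ENSMUSG00000096472, chr9:21288410-21291407, minus strand) had 6.70, 8.37 and 4.88 FPKM in the vagotomy libraries, 13.98, 6.81 and 6.85 FPKM in the resection libraries, and 13.1, 10.8 and 8.43 FPKM in the sham libraries. The vagotomy libraries were the lower group against sham, at the closest point 8.37 against 8.43 FPKM, with a change of -0.63 ± 0.32 (interval -1.33 to 0.08, limma adjusted p = 0.211).

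Read over the 10 genes, resection against sham gave 0 calls, where 0.294% of all tested genes were called. Cdkn1a alone had an unadjusted p below 0.05, against 5.89% of all tested genes. The libraries did not overlap for 4 members (Cdkn1a, Gadd45a and Gadd45g higher, Cdkn2c lower), against 10.8% of all tested genes, of which 6.36% were higher and 4.45% lower. The median log2 change was 0.13 for the members and -0.01 for all tested genes. The authors' deposited table called 2 members, Cdkn1a and Gadd45g, both higher, against 6.12% of the genes it tested, with 4.18% higher.

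In resection with vagotomy against resection 0 members were called, where 3.52% of all tested genes were. Bax and Cdkn1b had an unadjusted p below 0.05, against 24.2% of all tested genes, and the same pair, 1 higher and 1 lower, had libraries that did not overlap, against 26.2% (14% higher and 12.2% lower), so the share of members was near or below that of the rest. The median log2 change was 0.17 for the members and 0.02 for all tested genes. The authors' deposited table called 4 members here, Cdkn1a, Gadd45g and Bax higher and Cdkn1b lower, against 17.1% of the genes it tested (8.52% higher and 8.56% lower).

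In resection with vagotomy against sham 3 of the 10 members were called, all higher, where 10.1% of all tested genes were called, 5.81% higher and 4.26% lower. The same 3 had an unadjusted p below 0.05, against 30.1% of all tested genes. The libraries did not overlap for 6 members (Cdkn1a, Gadd45a, Gadd45g and Bax higher, Cdkn1b and Cdkn2d lower), against 36.7% of all tested genes (19.7% higher and 17% lower). The median log2 change was 0.44 for the members and 0.03 for all tested genes. For any difference among the 3 groups limma's F-test called 0 members, where it called 5.89% of all tested genes; 3 members had an unadjusted p below 0.05, against 26% of all tested genes, and Bax, Cdkn1a and Gadd45g had adjusted p-values of 0.0714, 0.0801 and 0.0917.

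The order of levels within a group also differed. With vagotomy it ran Cdkn1a, Cdkn1b, Mdm2, Bax, Gadd45g, Cdkn1c, Trp53, Cdkn2c, Cdkn2d and Gadd45a by mean FPKM, and only Cdkn2d was apart from its next lower neighbour. With resection it ran Cdkn1b, Mdm2, Cdkn1a, Cdkn1c, Bax, Gadd45g, Trp53, Cdkn2d, Cdkn2c and Gadd45a, and Cdkn1b and Cdkn2c were each apart from the next lower gene. With sham it ran Cdkn1b, Mdm2, Cdkn1c, Cdkn2c, Bax, Trp53, Cdkn2d, Cdkn1a, Gadd45g and Gadd45a, and Cdkn1b, Cdkn1a and Gadd45g were each apart from the next lower gene. Cdkn1a was thus first by mean with vagotomy and among the 3 lowest with sham, although with vagotomy its range overlapped that of Cdkn1b. That first place rested on vagotomy library 3, at 109 FPKM. In vagotomy libraries 1 and 2 Cdkn1a had 23.6 and 29.0 FPKM, below Cdkn1b at 50.2 and 46.1 FPKM. Without library 3 the vagotomy mean of Cdkn1a was 26.3 FPKM.

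Single libraries carried many of the members at once. Vagotomy library 3 was the highest of its group for 6 members (Cdkn1a, Cdkn1c, Mdm2, Gadd45a, Gadd45g and Bax) and the lowest for the other 4. Resection library 1 was the highest of its group for 6 members (Cdkn1c, Cdkn2c, Cdkn2d, Trp53, Gadd45g and Bax), and sham library 1 was the highest of its group for 7. Over all genes, vagotomy library 3 also had the highest median (8.29 FPKM) and upper quartile (22.6 FPKM) of the 9 libraries. How many of all tested genes were highest in each library was not counted, so whether these counts are particular to the members is unknown. What sets these libraries apart was not tested.

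Some marker lists differed between the operated groups and sham, and others overlapped. Over 18 DNA replication and mitosis markers, all measured, the summed level was 147 to 212 FPKM with vagotomy, 171 to 211 FPKM with resection and 345 to 511 FPKM with sham. Of these genes, limma called 10 lower with vagotomy against sham, where 4.26% of all tested genes were called lower, and 1 lower with resection against sham, where 0.294% of all tested genes were called. Over the 13 monocyte and macrophage markers it was 237 to 290 FPKM with vagotomy, 186 to 321 FPKM with resection and 59.5 to 84.0 FPKM with sham, with 6 called higher with vagotomy and 3 with resection against sham. Over the 7 of 10 neutrophil markers in the matrix it was 115 to 327 FPKM with vagotomy, 209 to 300 FPKM with resection and 19.02 to 43.7 FPKM with sham, with 4 of the 6 tested called higher with vagotomy and 1 with resection against sham. By contrast, the sums of 8 fibroblast markers (1543 to 1873, 1550 to 2070 and 1767 to 2425 FPKM with vagotomy, resection and sham) and of 8 endothelial markers (323 to 366, 332 to 366 and 285 to 368 FPKM) overlapped among the 3 groups, as did those of the erythroid and skeletal muscle lists between each operated group and sham. The sum of 8 epicardial and mesothelial markers was 42.9 to 76.1 FPKM with vagotomy, 61.9 to 113 FPKM with resection and 52.5 to 53.3 FPKM with sham. It lay above sham with resection and overlapped sham with vagotomy. Limma called 0 of these 8 with resection against sham, and 1 higher with vagotomy against sham, where 5.81% of all tested genes were called higher. The operated groups, with higher macrophage and neutrophil sums and lower replication sums, are those in which Cdkn1a lay above every sham library, and no macrophage, neutrophil or replication marker was listed at 0 in any library. Of the neutrophil markers, Mpo, Elane and Ly6g were not in the matrix used here. The part of these cell and replication markers in the Cdkn1a, Gadd45g and Bax values was not tested. Within the vagotomy group, library 3 had the highest Cdkn1a, the lowest replication sum (147 FPKM), the lowest macrophage sum (237 FPKM) and the highest neutrophil sum (327 FPKM). S100a9 made up 213 FPKM of that neutrophil sum, whereas S100a8, at 32.3 FPKM, was the lowest of its group there. S100a8 had 32.3 to 60.4 FPKM with vagotomy and 114 to 203 FPKM with resection. S100a9 had 50.8 to 213 FPKM with vagotomy and 23.0 to 57.8 FPKM with resection.

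Of 30 other p53 targets, 28 were in the matrix and 26 were tested. Dcxr, a carbonyl reductase, rose in resection with vagotomy against sham and was the only one called in any comparison. In resection with vagotomy against sham 5.81% of all tested genes were called higher. Dcxr averaged 8.25 ± 3.55 FPKM with vagotomy and 2.49 ± 1.21 FPKM with sham, a log2 change of 1.39 ± 0.37 (limma adjusted p = 0.0431), with 3 of 9 leave-one-out fits past the threshold. The list's median log2 change was 0.05 in that comparison, against 0.03 for all tested genes, with 14 of 26 higher in mean, where 51.8% of all tested genes were. In resection against sham the median was 0.01 with 0 calls, and in resection with vagotomy against resection -0.03 with 0 calls. Perp, a p53 target at cell junctions, had 83.6 ± 34.8 FPKM with vagotomy and 159 ± 23.8 FPKM with sham, a change of -0.98 that missed the threshold (limma adjusted p = 0.0712). Btg2, an antiproliferative p53 target, had 15.1 ± 3.07 FPKM with resection and 9.32 ± 1.69 FPKM with sham (log2 change 0.64, limma adjusted p = 0.714).

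Among 14 p53 regulators and checkpoint kinases, 11 were tested and 0 were called in any comparison. Their median log2 change was 0.08 in resection with vagotomy against sham, 0.44 in resection with vagotomy against resection and -0.30 in resection against sham. Chek1, the kinase of the replication checkpoint, came nearest: it had 5.86, 4.37 and 3.84 FPKM with vagotomy, 1.89, 4.22 and 3.68 FPKM with resection, and 7.27, 15.3 and 12.1 FPKM with sham. All operated libraries were below all sham libraries, with changes of -1.10 for resection with vagotomy (limma adjusted p = 0.0562) and -1.55 for resection (limma adjusted p = 0.0940).

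Among the 6 Gadd45 relatives and stress kinase partners 0 were called, with medians of 0.50 in resection with vagotomy against sham, 0.50 against resection and -0.12 in resection against sham. Gadd45b, the remaining family member and a target of stress signalling, had 12.1, 9.85 and 10.6 FPKM with vagotomy, 9.66, 5.22 and 2.62 FPKM with resection, and 7.38, 2.66 and 2.82 FPKM with sham. The vagotomy libraries lay above all others, with changes of 1.27 against sham (limma adjusted p = 0.0763) and 0.93 against resection (limma adjusted p = 0.207).

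Among 17 tested genes of the Bcl2 family, caspases and their partners, the medians were near 0 in resection with vagotomy against sham (0.15, 3 higher and 2 lower, where 5.81% of all tested genes were called higher and 4.26% lower), against resection (0.03, 2 higher, where 1.97% of all tested genes were called higher) and in resection against sham (0.10, none called). Bik, which like Bax promotes cell death, had 16.2, 12.98 and 13.7 FPKM with vagotomy, 7.85, 4.09 and 4.23 FPKM with resection, and 4.25, 4.73 and 3.81 FPKM with sham. Bik rose with vagotomy against sham (1.54 ± 0.26, limma adjusted p = 0.0119) and against resection (1.30 ± 0.26, limma adjusted p = 0.0337). As for Bax, the vagotomy libraries lay together above all the others, and resection library 1 lay above the other resection libraries.

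The survival gene Bcl2l1 also rose with vagotomy against sham, to 24.8 ± 7.33 FPKM, against 8.89 ± 1.63 FPKM in sham libraries (1.35 ± 0.34, limma adjusted p = 0.0346). Diablo, an antagonist of caspase inhibitors, fell by 1.21 on the log2 scale with vagotomy against sham (limma adjusted p = 0.0426; its deposited locus holds 4 other genes). Cycs, the cytochrome c that Bax can release, rose with vagotomy against resection to 164 ± 43.0 FPKM, against 49.3 ± 9.16 FPKM (1.70 ± 0.34, limma adjusted p = 0.0337). Bcl2a1b, a survival gene, rose to 1.61 ± 0.295 FPKM with vagotomy, against 0.190 ± 0.180 FPKM with sham (limma adjusted p = 0.0411), and has near-identical copies between which reads could be split. The genes called higher thus included promoters and opponents of cell death. Of these, Bik against sham was past the threshold in 7 of 9 leave-one-out fits, and the other calls named here in 1 to 4.

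The 10 cyclins and CDKs that the inhibitors bind were lower in mean for 9 genes in resection against sham, where 51.4% of all tested genes were, with a median of -0.71 and 0 calls. In resection with vagotomy against sham the median was -0.26 with 3 calls, all lower, where 4.26% of all tested genes were called lower, and against resection it was 0.18 with 0 calls. Ccne2, a cyclin of DNA replication entry, had 1.28, 1.82 and 0.911 FPKM with vagotomy, 3.62, 8.95 and 4.31 FPKM with resection, and 7.93, 19.4 and 14.8 FPKM with sham. The vagotomy libraries were below all others, and the change against sham was -2.62 ± 0.38 (limma adjusted p = 0.00599), past the threshold in all 9 leave-one-out fits. Ccna2 and Cdk1, which act in replication and mitosis, fell in the same comparison by 1.24 and 1.06 on the log2 scale (limma adjusted p = 0.0389 and 0.0410), each past the threshold in 3 of 9 leave-one-out fits. Both are also among the DNA replication and mitosis markers, so their calls are counted in both lists. Ccnd1, a D cyclin, had 22.3 ± 7.67 FPKM with vagotomy, 13.4 ± 0.302 FPKM with resection and 23.5 ± 1.496 FPKM with sham, and passed in no comparison.

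Among 10 genes of CDK inhibitor turnover, Dtl, part of the ligase that destroys p21 during replication, fell in resection with vagotomy against sham to 2.35, 2.36 and 0.944 FPKM, against 4.59, 9.36 and 8.49 FPKM in the sham libraries (-1.55 ± 0.32, limma adjusted p = 0.0189). Fbxl12, a ligase subunit, rose with vagotomy to 8.91 ± 1.53 FPKM, against 2.99 ± 1.51 FPKM with resection and 3.37 ± 0.901 FPKM with sham (1.38 and 1.19, limma adjusted p = 0.0465 and 0.0447). Dtl stayed past the threshold in 6 of 9 leave-one-out fits, and Fbxl12 in 1 against resection and 2 against sham. The medians were -0.03 in resection with vagotomy against sham, 0.19 against resection and -0.18 in resection against sham, where 0 were called. Of all tested genes, 5.81% were called higher and 4.26% lower with vagotomy against sham, and 1.97% higher against resection. Skp2, which marks p27 for destruction, had 5.19 ± 0.655 FPKM with vagotomy and 9.37 ± 1.45 FPKM with sham (-0.74, limma adjusted p = 0.0556).

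Among 11 other transcription factors known to induce Cdkn1a, Cebpb, an acute phase factor, was called once. That call was higher with vagotomy against sham, where 5.81% of all tested genes were called higher. Cebpb had 23.1, 8.13 and 18.1 FPKM with vagotomy, 22.1, 2.29 and 4.75 FPKM with resection, and 4.42, 0.885 and 1.09 FPKM with sham. Library 1 was the highest of every group, as for Gadd45g in the resection group, and the change with vagotomy against sham was 2.54 ± 0.68 (limma adjusted p = 0.0432), past the threshold in 3 of 9 leave-one-out fits, and 8 other genes share its deposited locus. The list's medians were 0.03, -0.19 and 0.10 in resection with vagotomy against sham, against resection, and in resection against sham. Of 5 tested genes in the list of other CDK inhibitors and pocket proteins 0 were called, with medians of -0.60, 0.02 and -0.18 in the same order. Rbl1, a pocket protein, had 5.14 ± 0.707 FPKM with vagotomy, 4.41 ± 1.51 FPKM with resection and 11.7 ± 3.93 FPKM with sham (limma adjusted p = 0.0641 and 0.226 against sham).

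For the imprinted Cdkn1c, 10 other imprinted growth genes were tested, with medians of 0.00 in resection with vagotomy against sham, -0.18 against resection and 0.18 in resection against sham. Limma called 1 of them higher with vagotomy against sham and 1 against resection, where 5.81% and 1.97% of all tested genes were called higher. Meg3, a maternally expressed noncoding RNA, rose with vagotomy to 196 ± 14.3 FPKM, against 68.2 ± 29.5 FPKM with resection and 75.9 ± 35.5 FPKM with sham (1.595 and 1.455, limma adjusted p = 0.0499 and 0.0409), with 2 and 3 of 9 leave-one-out fits past the threshold, and its deposited locus holds 5 other genes. Its neighbour Dlk1 had 40.0 ± 5.81 FPKM with vagotomy and 10.9 ± 6.87 FPKM with resection (1.92, limma adjusted p = 0.0615).

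**Figure D4:**
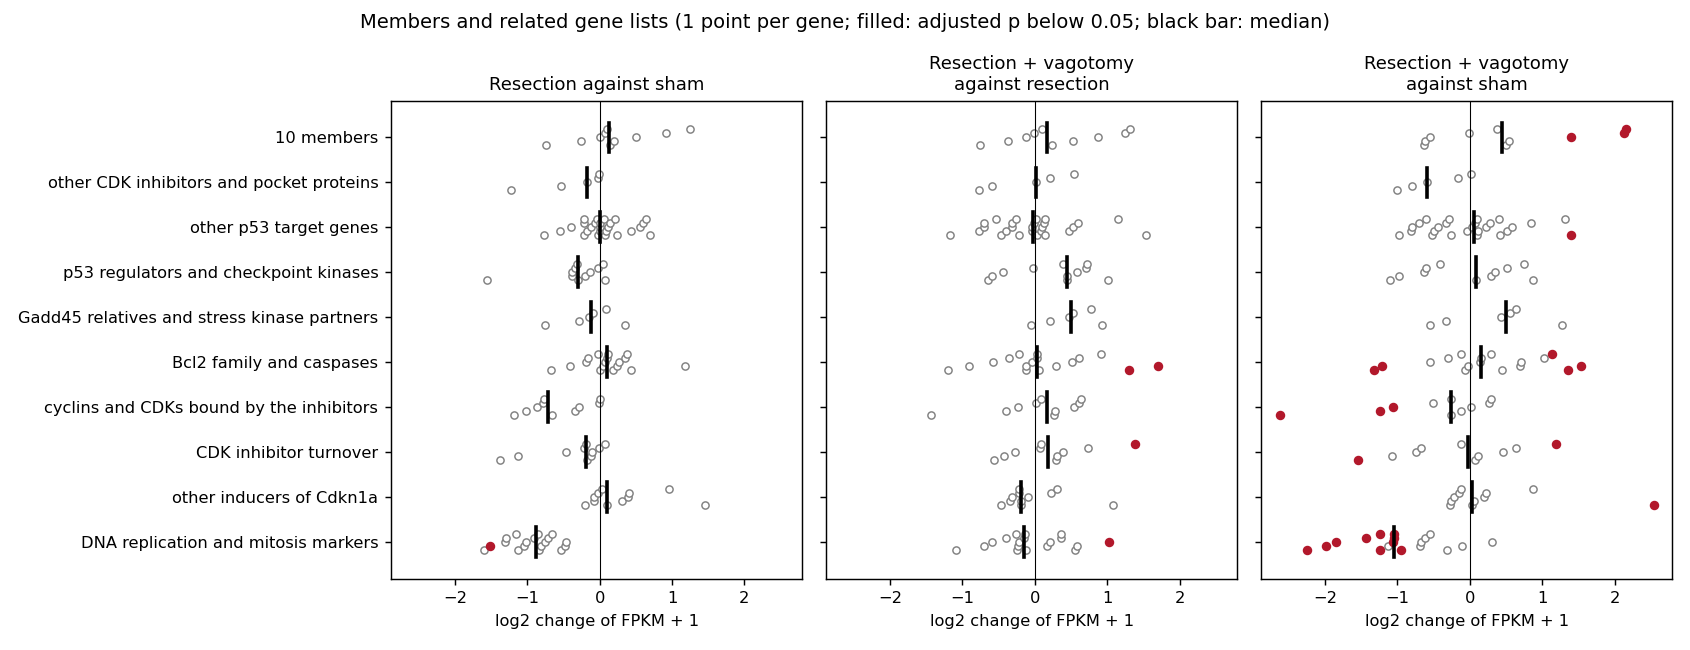
Differences of log2(FPKM + 1) for the 10 genes and for 9 related lists in the 3 comparisons, with 1 point per tested gene, red where the adjusted p was below 0.05, a black bar at each list's median and a line at no change. The replication and mitosis markers have the lowest median of the lists drawn in both comparisons with sham, -1.05 with vagotomy and -0.88 with resection, and the median of the other p53 targets lies near 0 in each comparison.

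For 4 members with unlike profiles, the genes with the most similar profile over the 9 libraries were found by the root mean square difference of log2(FPKM + 1) after centring each gene, a description with no test. Cdkn1a was closest to Uap1l1 (0.30), Pes1 (0.33) and Csf2rb2 (0.35). Pes1 had 21.3, 36.0 and 133 FPKM with vagotomy, 16.8, 12.8 and 40.1 FPKM with resection, and 13.5, 11.3 and 11.3 FPKM with sham, so vagotomy library 3 and resection library 3 were high for both. Gadd45g was closest to Rilpl2 (0.39), mmu-mir-6240 (0.40) and Igflr1 (0.40), all high in resection library 1 as well as in the vagotomy libraries. Cdkn1c was closest to Ppard (0.10), Kctd17 (0.13) and Fam109a (0.14), and Mdm2 to Nin (0.10), Zc3h15 (0.12) and Copa (0.13).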

How the data were processed

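Expression in 9 libraries, 3 per group, was analysed from the authors' deposited matrix of FPKM values, to which they had added 1; that 1 was subtracted. Reads were processed with TopHat2 2.0.9, Cufflinks 2.1.1 and Cuffdiff 2.1.1 on GRCm38, per the submitters' processing notes; strand settings are not given in the sources used here. The authors' deposited Cuffdiff tables give group FPKM values with p-values and q-values for 2 comparisons: resection against sham, and resection plus vagotomy against resection. Depth is unknown.

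Genes averaging 1 FPKM or more were tested by limma 3.58.1 (R 4.3.3) on log2(FPKM + 1), with 1 mean per group over all 9 libraries, a variance trend, two-sided tests and Benjamini-Hochberg adjustment over all 13249 genes at 0.05. The procedure was tested on simulated data with independent noise for each gene and no outlying library. That test therefore does not bear on calls that rest on vagotomy library 3. Positions came from GENCODE M21 and promoters from RefSeq GRCm38.p6. The members and lists were chosen with earlier results of these data known. All members were named, with each pathway list's called genes or up to 4 with the smallest p, and the 3 most similar genes for 4 members. Of marker lists only counts, medians and sums were used, except for genes named after their values were seen. Among these were Myh6 and Actc1, because they are listed at 0, and Myl3 and Myl2, because they moved in opposite directions. S100a8 and S100a9 were named for the same reason as Myl3 and Myl2. A called gene of the Bcl2 family and caspase list is not reported here.

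Same-numbered libraries deviated together across genes with r from 0.117 to 0.199 between resection with vagotomy and resection. This was above 0.1 in all 3 pairs, the rule by which the numbers were taken to pair these groups. Differently numbered libraries of these same groups had r from -0.131 to -0.0212, and those over all groups from -0.448 to 0.335. Deviations from a group mean cancel over the libraries of the group, so the ranges for same and different numbers are not independent. The reported fit had no pairing, and the replicate number was a block only in an alternative. The replicate numbers are those of the titles: the matrix columns of library 3 are numbered 3 with vagotomy, 7 with resection and 9 with sham, so nothing in the labels shows that the third pair was handled together. Alternatives were pseudocounts of 0.1 and 5, an average of 5 FPKM or no filter, quantile and upper-quartile scaling, only the 6 compared libraries, no trend, robust moderation, the replicate block, leaving out each library, and Cuffdiff's calls; the same settings for list genes were added after seeing the data.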

Additional observations from a re-analysis of the deposited data

How the results depend on the processing

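With the authors' Cuffdiff calls, 2 members were called in resection against sham and 4 in resection with vagotomy against resection, where limma called 0. With the replicate block, 1 member (Bax) was called in resection with vagotomy against resection and 2 (Cdkn1a and Bax) in the F-test; it changed no other call of a member. Leaving out 1 library at a time gave 0 to 0 called members in resection against sham, 0 to 2 in resection with vagotomy against resection, 0 to 3 in resection with vagotomy against sham and 0 to 2 in the F-test; the cause was not tested. Against sham, Gadd45g lost its call with a pseudocount of 5 (adjusted p = 0.0554), and Bax with upper-quartile (0.0564) or quantile scaling (0.0504). Trp53 in resection against sham was -0.0143 with upper-quartile and -0.0147 with quantile scaling. Without 1 library, changes near 0 took either sign: in resection against sham Cdkn1b (-0.0486 to 0.39), Cdkn1c (-0.22 to 0.44), Trp53 (-0.26 to 0.24), Mdm2 (-0.0418 to 0.33) and Bax (-0.41 to 0.42); in resection with vagotomy against resection Cdkn1c (-0.32 to 0.21), Cdkn2c (-0.34 to 0.61), Mdm2 (-0.0178 to 0.56) and Gadd45a (-0.13 to 0.11); and against sham Cdkn1c (-0.21 to 0.33). Calls over all genes ranged from 11 to 74 (39 as reported) in resection against sham, 29 to 1277 (466) in resection with vagotomy against resection, 100 to 2413 (1334) against sham and 112 to 1632 (781) in the F-test. Replicate numbers did not pair the other groups by the rule used: r was -0.02 to 0.19 between resection with vagotomy and sham and 0.01 to 0.50 between resection and sham, and 7 of 9 libraries correlated best with their own number. With a mean of at least 5 FPKM, Gadd45a was not tested. Leaving out a library leaves 2 in its group, assumed to vary like the others. Depth is unknown, so counting error cannot be given.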
